A study of Mus musculus with 15 samples.

Results

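The 5 samples from chow-fed mice (CHOW) are the baseline of a study of foam cells, and the transcript profile of these lesional macrophages is described here on its own, with no contrast to another diet. They were chosen by their titles and make up 5 of the 15 samples of the series. Foam cells are macrophages that have filled with lipid in the wall of an artery. Here they were cut with a laser out of sections of the aortic sinus, the root of the aorta inside the heart, and their amplified RNA was hybridised to Affymetrix mouse expression arrays. All 15 samples came from C57BL/6 mice of the genotype ApoE-/-, so the loss of apolipoprotein E, which raises plasma cholesterol and lets lesions form, is shared by every group. The CHOW mice stayed on regular chow until week 22. The other groups, used here only for the level and the spread of the same genes, ate a western-type diet for 14 weeks, from week 8 to week 22 (14w-WD, 5 samples), or for 2 weeks (2w-WD, 5 samples). The series text sets the 2 weeks of diet between weeks 22 and 24, while the labels put 20 weeks of chow in front of it, so the age of the 2w-WD mice is uncertain. Nothing says which animal an array came from or whether mice were pooled, so the spread between replicates may be technical in part.

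Macrophages in a lesion take up lipoproteins through scavenger receptors and digest them in lysosomes, where cholesterol is freed and handed on by the proteins Npc1 and Npc2. The cell then stores it as ester in lipid droplets or exports it through the transporters Abca1 and Abcg1, both of which are induced by liver X receptors. The same cells swallow dying cells, bind complement and antibody-coated particles, and present antigen. The aortic sinus also holds smooth muscle, valve stroma and endothelium, and it borders on atrial and ventricular heart muscle and on fat.

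The values are intensities, the brightness of a probe set on a linear scale. A level below is log2(intensity + 16), and a gene is represented by its brightest probe set over the 5 CHOW arrays. Of 18193 genes, 6192 (34.0%) reached the floor used here, a mean level of 6.86, which is an intensity of 100. A probe set's brightness depends on its probes as well as on the RNA, so an order of levels is an order of signal and not of transcripts per cell. With 5 arrays the 95% interval of an SD runs from 0.599 to 2.87 times its value. Values in a row follow replicates 1 to 5. The 5 arrays had median intensities of 34.3 to 35.5, and 20.4% to 24.7% of their probe sets lay above an intensity of 100, with replicate 1 highest. Replicates 1 and 5 resembled the other CHOW arrays least, with mean correlations over all 45037 probe sets of 0.918 and 0.926 against 0.940 to 0.947 for replicates 2 to 4. Of the 6192 genes at or above the floor, 29.2% were lowest and 29.8% highest on replicate 1, against 29.7% and 25.3% on replicate 5. The shares lowest and highest were 15.2% and 16.4% on replicate 2, 14.2% and 9.63% on replicate 3, and 11.5% and 18.9% on replicate 4. These shares are the background against which every count by array below is read. They are not matched for level, and the brightest genes had other shares, as given below.

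The label of a macrophage sample was borne out by its defining markers, with a caveat for neighbouring tissue. Adgre1, which encodes the macrophage surface protein F4/80, had levels of 12.51, 12.75, 12.93, 12.92 and 12.95, a mean of 12.81 ± 0.18 (SD, n = 5). Lyz2, which encodes lysozyme, had 13.90, 14.12, 13.90, 13.94 and 13.64, and Csf1r, the receptor for the growth factor that keeps macrophages alive, had 14.12, 14.49, 14.10, 14.15 and 13.80. All 3 were far above the floor on each array. Cd68, a glycoprotein of the macrophage endolysosome, was also above the floor on each array but spread more, with 11.96, 12.51, 11.38, 11.45 and 10.31 (11.52 ± 0.82), highest on replicate 2 and lowest on replicate 5. Of 22 measured genes of a macrophage identity list, 18 reached the floor, and 16 did so on all 5 arrays. Those that did not included Itgam (5.07), which encodes CD11b, and Spi1 (5.26), which encodes the myeloid regulator PU.1, so their probe sets gave no usable signal. The list's mean was 10.42, 10.49, 10.28, 10.49 and 10.05, lowest on replicate 5, where 9 of the 18 genes at or above the floor had their lowest value (background 29.7%). Apoe, the gene deleted in these mice, had levels of 4.79, 5.03, 5.22, 5.66 and 4.14, all below the floor. Acta2, the actin of smooth muscle, had 13.79, 13.80, 13.12, 13.61 and 13.31, and Myh6, the myosin heavy chain of heart muscle, had 14.02, 14.22, 13.81, 9.98 and 14.50. Both were above the floor on every array, with Myh6 far lower on replicate 4 than elsewhere. Some other genes of smooth muscle and heart muscle, given below, were not above it on each array.

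The 25 brightest genes included genes of digestion, lipid handling, cell clearance, protein synthesis and the actin skeleton. Lyz1 led with levels of 14.32, 14.59, 14.68, 14.62 and 14.72; it is a near-identical copy of Lyz2, so signal from the 2 genes may be shared and the split between them is uncertain. Next came Npc2, which carries free cholesterol inside the lysosome, at 14.53, 14.49, 14.52, 14.49 and 14.55. The highest and lowest of these values of Npc2 were 1.04-fold apart on the log2(intensity + 16) scale. Lysosomal genes among the 25 were also Grn (14.51 ± 0.13), whose product granulins support lysosome function, the protease Ctsb (14.31 ± 0.071), the hexosaminidase subunit Hexa (14.20 ± 0.094) and Lamtor1 (14.30 ± 0.18), which anchors nutrient signalling to the lysosome. Genes of lipid handling were Fabp5 (14.38 ± 0.20), a fatty acid carrier, and Lpl (14.08 ± 0.17), the lipase that releases fatty acids from lipoproteins. Tgm2 (14.44 ± 0.071) and Mfge8 (14.25 ± 0.12), which help phagocytes bind dying cells, the complement chain C1qb (14.09 ± 0.19) and the galectins Lgals3 (14.18 ± 0.070) and Lgals1 (14.09 ± 0.25) stood beside them. Ribosomal genes were Rpsa, Rps28, Rpl35, Rps18 and Rps3, at 14.15 to 14.41, and the actin-severing factor Cfl1 had 14.51 ± 0.079. Cndp2, Selenow, Hspa8, Csf1r, Tpt1 and Shisa5 completed the group. Csf1r, C1qb and the lysozymes are myeloid markers, whereas most of the other genes are made by many cell types.

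**Figure D1:**
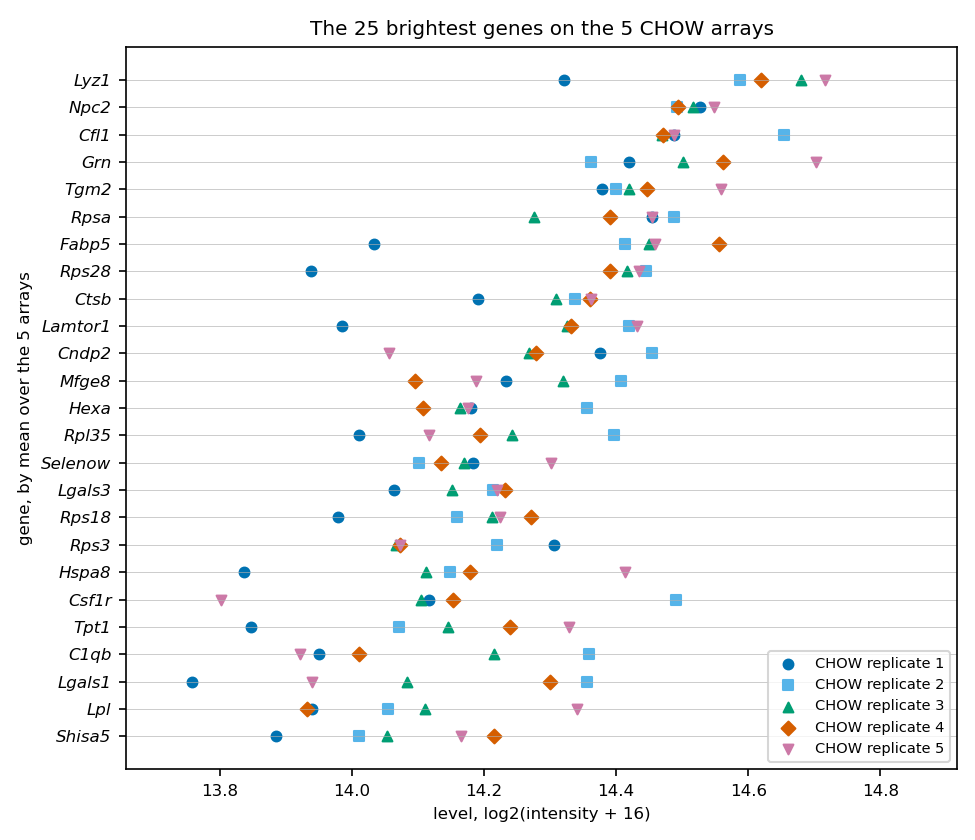
Level of the 25 brightest genes on each of the 5 CHOW arrays, as log2(intensity + 16) on the horizontal axis, with 1 symbol per replicate. Npc2 runs from 14.49 to 14.55, while Lyz1, Fabp5, Rps28, Lamtor1, Hspa8 and Tpt1 have replicate 1 as their lowest point.

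The position of replicate 1 in that plot held for the brightest genes at large. Among the 250 brightest genes (1.37% of all genes), 61.6% were lowest on replicate 1 and 49.6% highest on replicate 5, against 29.2% and 25.3% over the 6192 genes. The last gene inside this set was Serinc3 at 13.04 and the first outside was Sf3b4 at 13.03. Of gene lists, 19 of 41 measured cytosolic ribosomal proteins, 12 of 36 lysosomal genes, 10 of 21 genes of the lipid-associated macrophage and 8 of 17 genes of actin and motility were among the 250. Of 41 genes of the respiratory chain and ATP synthase 11 were, and of 22 macrophage identity genes 5. Ctsb, Ctsd and Lipa are counted in both the lysosomal and the lipid-associated macrophage list. Of 24 genes of inflammatory cytokines and NF-kB, the inhibitor Nfkbia (13.94 ± 0.38) was the only member in the set.

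Lysosomal genes were bright and, for many of them, close to constant. Of 36 measured hydrolases, membrane proteins and proton pump subunits, 31 reached the floor and 29 did so on every array, with a median level of 12.61 against 6.20 over all genes. The proteases were led by Ctsb at 14.19, 14.34, 14.31, 14.36 and 14.36 and Ctss at 13.59, 13.98, 14.05, 14.13 and 14.24. Ctsd had 13.93, 13.84, 13.78, 13.70 and 13.68, Ctsl 13.56, 13.52, 13.58, 13.52 and 13.48 and Psap, which encodes the activators of sphingolipid breakdown, 14.14, 14.10, 14.06, 13.96 and 14.01. Ctsd spanned 0.25 and Ctsb, Ctsl and Psap less, whereas Ctss spanned 0.66 and was lowest on replicate 1. Lamp1, the main glycoprotein of the lysosomal membrane, had 13.81, 13.70, 13.68, 13.78 and 13.66, and Lipa, which splits cholesterol esters in the lysosome, had 13.92, 13.74, 13.57, 13.61 and 13.55. The spread was larger for Gusb, a glucuronidase, with 10.45, 9.91, 9.10, 9.21 and 7.73, and for the pump subunit Atp6v1a, with 10.76, 9.51, 10.26, 9.98 and 8.27; both were lowest on replicate 5. Npc1, the membrane partner of Npc2, was near the floor at 8.21, 7.00, 6.25, 7.76 and 6.83. Neu1 (5.06), Tfeb (5.50), Glb1 (6.09) and Gla (6.14) had means below it. The mean over the list was 11.51, 11.41, 11.24, 11.26 and 10.98, and 13 of the 31 genes were lowest on replicate 5 (background 29.7%).

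Promoters of lysosomal genes often carry E-boxes, the letters CACGTG, which read the same on both strands and are the sequence bound by Tfeb and its relatives. Of 35 RefSeq windows (GRCm38.p6, from 250 bases before to 50 after a gene's start) that matched 29 of the 36 lysosomal genes, 11 held at least 1 CACGTG, or 31.4%, against 7.15% of all 32851 windows. None of the 23 windows of macrophage identity genes did, but 5 of 42 (11.9%) of ribosomal genes and 5 of 24 (20.8%) of immediate early genes did. The windows of Lamp1 (chr8:13158911-13159210, plus strand) and Ctsd (chr7:142387778-142388077, minus strand) are shown as examples chosen for their E-boxes, which are in capitals. Lamp1 has 4 and Ctsd has 2. Both were among the 250 steadiest and the 250 brightest genes, as were Ctsl, whose window has 1, Hexa, Npc2, Psap and Scarb2, whose windows have none, and Ctsb, which had no window in the table.
Lamp1: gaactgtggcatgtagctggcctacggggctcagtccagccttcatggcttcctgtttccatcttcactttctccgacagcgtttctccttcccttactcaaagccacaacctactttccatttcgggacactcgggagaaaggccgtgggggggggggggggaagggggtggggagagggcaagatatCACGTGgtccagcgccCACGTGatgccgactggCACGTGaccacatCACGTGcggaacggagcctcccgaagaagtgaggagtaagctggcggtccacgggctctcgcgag
Ctsd: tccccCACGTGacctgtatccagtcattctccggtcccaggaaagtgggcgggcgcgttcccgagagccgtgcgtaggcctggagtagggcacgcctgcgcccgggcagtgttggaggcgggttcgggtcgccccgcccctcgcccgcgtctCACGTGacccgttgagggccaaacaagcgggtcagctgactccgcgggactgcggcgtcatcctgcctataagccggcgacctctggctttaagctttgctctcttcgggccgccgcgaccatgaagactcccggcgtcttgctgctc
A match describes the letters of the window and not a bound site, and nothing here measures binding.

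Genes of the lipid-associated macrophage, a state described in lipid-rich tissue, were mostly bright. Of 21 measured genes 18 reached the floor, with a median level of 12.79. Gpnmb, a membrane glycoprotein of such cells, had 13.19, 13.59, 13.67, 13.63 and 13.67, and Fabp5 had 14.03, 14.41, 14.45, 14.55 and 14.46. Trem2, their lipid-sensing receptor, was much closer to the floor at 8.65, 7.83, 7.47, 7.58 and 6.34, with replicate 5 below it. Cd9, a tetraspanin of the same state, had 9.59, 7.40, 7.53, 7.94 and 6.99, and its highest value fell on replicate 1. Apoc1 (6.85) and Apoc2 (6.17), lipoprotein genes next to Apoe, had means below the floor. The mean over the list was 11.40, 11.47, 11.41, 11.42 and 11.19, so that replicate 5 lay apart from the other 4 arrays.

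The cholesterol exporters were bright, and most of them rather even. Abcg1 had 12.95 ± 0.17 (SD, n = 5) and Abca1 11.72, 12.62, 12.76, 12.54 and 12.60, which was lower on replicate 1 and level on the rest. Pltp, which transfers phospholipid between lipoproteins, had 13.51, 14.35, 13.77, 13.79 and 13.71. Mylip, a ubiquitin ligase induced by liver X receptors, had 11.34 ± 0.29, and Srebf1, a regulator of lipid synthesis, had 10.82 ± 0.13. The liver X receptor gene Nr1h3 (6.09) and its partner Rxra (6.17) lay below the floor although Abca1 and Abcg1 were bright. Of 12 genes on this list 9 were measured, with no other liver X receptor gene among them. Of 17 measured genes of sterol synthesis and its control 6 reached the floor, close to the 34.0% of all genes, and the brightest was Hmgcs1, an early enzyme of the pathway, at 11.99, 13.12, 12.37, 12.46 and 11.79. Among droplet and lipid-use genes 10 of 16 reached the floor. Plin2, the droplet coat protein of macrophages, had 13.25, 13.65, 13.56, 13.85 and 13.80, and Nceh1, which hydrolyses stored cholesterol ester, had 11.03 ± 0.25. Abhd5, a co-activator of droplet lipolysis, had 6.24, 6.91, 6.67, 7.30 and 9.16 and was above the floor on replicates 2, 4 and 5. Lpl, Fabp4 and several droplet genes are also genes of fat cells, whose markers differed between the arrays as given below, and their part in these values was not tested.

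Scavenger and lipoprotein receptors reached the floor in 9 of 13 cases, all 9 on every array. Lrp1, a large receptor for remnants and dying cells, had 11.76, 12.59, 12.24, 12.22 and 12.07, and Cd36 had 11.47, 12.01, 12.00, 11.61 and 11.93. Msr1, the class A scavenger receptor, had 9.32, 9.99, 10.71, 10.28 and 9.45. Cd36 and Lrp1 varied little, with SDs of 0.25 and 0.30, and Msr1 more, with 0.58. Vldlr had 9.87, 9.22, 10.57, 9.39 and 12.14, highest on replicate 5. Olr1 (6.44), Marco (6.26) and Cd163 (5.82), other receptors of this kind, lay below the floor.

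Genes for the clearance of dying cells, complement and antibody binding were well represented, and complement genes were mostly highest on replicate 2. Of 23 clearance genes 17 reached the floor, led by Tgm2, Mfge8 and C1qb, with the receptor Mertk at 12.52, 13.18, 12.74, 12.63 and 12.48. Axl (6.42), Tyro3 (5.70) and Timd4 (5.19), which serve the same task, did not. The 3 chains of complement C1q differed in spread: C1qb had 13.95, 14.36, 14.21, 14.01 and 13.92, C1qa 10.84, 10.89, 10.32, 10.15 and 7.97 and C1qc 8.96, 9.38, 8.55, 8.58 and 6.76. All 3 chains were lowest on replicate 5 and highest on replicate 2. Of the 10 complement genes at or above the floor, 8 were highest on replicate 2, against a background of 16.4%. C2, a complement protease, had 9.14, 10.00, 7.41, 6.52 and 7.41 and was among the 250 most variable genes. All 11 measured Fc receptor and signalling genes reached the floor. The adaptor Tyrobp had 13.88, 13.92, 13.83, 13.88 and 13.71, and Fcgr4, a receptor for IgG, had 13.02, 13.14, 12.81, 12.79 and 12.51. Fcgr3, a further IgG receptor, had 9.25, 7.76, 7.03, 7.50 and 6.48, and 7 of the 11 genes were lowest on replicate 5 (background 29.7%).

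Antigen presentation was split in the same way between bright, even genes and dimmer, spread ones. Of 13 class II genes 9 reached the floor, with H2-Aa at 14.09, 14.21, 13.69, 14.03 and 13.73 and H2-Ab1 at 12.81, 13.34, 13.23, 13.45 and 13.46. The invariant chain Cd74 had 8.88, 9.33, 7.25, 7.96 and 7.57 and the peptide loader H2-DMa 10.00, 10.59, 8.30, 9.41 and 6.92. H2-DMa was highest on replicate 2 and lowest on replicate 5, and it was among the 250 most variable genes. Ciita, the master regulator of class II genes, was below the floor at 5.32. Of 15 class I genes 8 reached the floor. B2m, the light chain of class I, had 12.17, 12.41, 11.84, 12.63 and 11.08, and H2-K1 had 10.44, 11.54, 12.18, 12.26 and 12.51, lowest on replicate 1 and highest on replicate 5, whereas H2-D1 had 11.65, 11.66, 11.28, 10.95 and 10.36, with the opposite ends. H2-K1 and H2-D1 are near-identical in part, so these 2 heavy chain genes are uncertain. The transporters Tap1 (5.38) and Tap2 (5.24) were below the floor.

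Several well-known cytokine genes lay below the floor, although 11 of 24 genes of inflammatory cytokines and NF-kB reached it (34.0% of all genes did). Nfkbia had 13.36, 13.87, 14.09, 13.97 and 14.40, and the inflammasome genes Casp1 and Pycard had 10.60 ± 0.18 and 11.23 ± 0.47. Tnf (5.45), Il6 (5.06), Il1b (6.54), Nos2 (4.95) and Il12b (5.62) had means below the floor. Ptgs2, the inducible cyclooxygenase, was above it on replicates 3 and 5 alone, with 6.46, 6.46, 7.24, 5.97 and 8.92. Of 26 interferon response genes 9 reached the floor. Gbp2, a guanylate-binding GTPase, had 11.65, 11.53, 11.23, 11.88 and 11.26, and Oas1a, which senses double-stranded RNA, had 11.15, 11.48, 10.65, 10.85 and 10.13. Rsad2, the antiviral protein viperin, had 10.39, 10.22, 10.12, 10.05 and 6.83: it was about even on 4 arrays, just under the floor on replicate 5 and among the 250 most variable genes. A second probe set of Rsad2 read 7.74, 6.95, 6.52, 6.61 and 6.10, also lowest on replicate 5 but with no such gap.

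Chemokines included some of the most variable macrophage genes. Of 23 measured chemokines 11 reached the floor, 5 of them on all 5 arrays, and Ccl5, Cxcl1 and Cxcl2 were among the 250 most variable genes, a set that holds 4.04% of the genes at or above the floor. Ccl6, a chemokine of resting macrophages, had 12.71, 13.36, 13.10, 13.46 and 12.72, and Ccl9 had 11.68, 12.48, 12.47, 12.60 and 12.30. Ccl5, which attracts T cells and monocytes, had 10.77, 11.69, 9.58, 11.06 and 6.76, so that replicate 5 was below the floor and below each other array. Cxcl2 and Cxcl1, both neutrophil attractants, did not go together. Cxcl2 had 6.77, 6.65, 9.96, 10.47 and 8.82, high on replicates 3, 4 and 5, whereas Cxcl1 had 12.06, 8.94, 12.26, 9.71 and 11.82, high on replicates 1, 3 and 5. A second probe set of Cxcl1 read 11.52, 8.62, 11.81, 9.32 and 11.39, again high on replicates 1, 3 and 5. Ccl2, the main monocyte attractant, was near the floor at 6.69, 7.17, 7.00, 7.61 and 6.88. Of 9 chemokine receptors only Cxcr4, at 8.40, 8.24, 10.58, 9.47 and 9.66, and Ackr1, at 7.18, reached the floor.

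Among 17 Toll-like receptors and adaptors, 10 reached the floor, 4 of them on all arrays. Irak1, a kinase of this pathway, had 10.64, 11.17, 11.20, 11.44 and 11.17. Tlr4, the receptor for lipopolysaccharide, had 8.04, 7.42, 8.19, 8.70 and 8.45, and Tlr2 had 9.01, 6.92, 8.12, 8.91 and 6.54. Myd88, the shared adaptor, had 10.16, 7.99, 8.56, 7.98 and 8.35, highest on replicate 1. Genes of the resident or alternatively activated macrophage reached the floor in 9 of 22 cases. Selenop, a selenoprotein released by such cells, had 13.50, 13.93, 13.88, 13.91 and 14.03, Tgfbi, a matrix protein, had 13.54, 13.63, 13.77, 13.96 and 14.02, and Igf1 had 12.49, 12.57, 12.52, 12.26 and 11.80. The textbook genes of alternative activation were dim: Arg1 had 4.74, 4.35, 4.26, 7.38 and 4.10, above the floor on replicate 4 alone, while Retnla (4.84) and Chil3 (6.00) had means below it. Mrc1, the mannose receptor, was above it on all arrays, with 8.70, 8.64, 8.73, 9.15 and 9.37.

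Immediate early genes, which rise within minutes of a stimulus or of tissue handling, were in part bright. Of 24 measured 15 reached the floor, 9 on every array. Jund had 13.24, 13.51, 13.45, 13.37 and 13.65, Fos 11.33, 11.59, 11.90, 11.05 and 11.89, Ier3 11.51, 11.44, 12.22, 12.15 and 13.04 and Egr2 10.44, 11.75, 12.14, 11.96 and 11.86. Fos had no array far from the rest, whereas Egr2 was lower on replicate 1 than on the other 4. Junb (4.91), Myc (4.40) and Dusp1 (5.53) lay below the floor. Of 25 genes of the unfolded protein response and heat shock 21 reached the floor, and 11 of those were highest on replicate 5 (background 25.3%). Atf4, the regulator of this response, had 11.88, 12.53, 13.15, 13.24 and 13.63, Hspa1b, an inducible chaperone, 10.54, 10.38, 11.77, 10.79 and 12.41, and Herpud1, a gene of the endoplasmic reticulum, 10.23, 9.95, 10.72, 10.88 and 12.07. Hspa5, the main chaperone there, had 12.37, 12.31, 12.62, 12.77 and 12.99. The list's mean was 9.88, 9.80, 9.93, 10.24 and 10.31, higher on replicates 4 and 5 than on the others.

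Iron genes were lowest on replicate 5, and antioxidant genes were mixed. Fth1, the heavy chain of ferritin, was bright and even at 13.89, 14.14, 14.11, 14.04 and 14.02. Tfrc, the transferrin receptor, had 9.82, 9.40, 8.89, 8.21 and 6.59, Slc40a1, the iron exporter ferroportin, 11.79, 12.20, 10.69, 9.22 and 9.91, and Blvra, which reduces biliverdin, 10.08, 8.55, 7.62, 8.16 and 6.66. Of the 9 iron genes at or above the floor 7 were lowest on replicate 5 (background 29.7%), and Tfrc, Slc40a1 and Blvra were among the 250 most variable genes. Hmox1, which breaks down heme, had 8.02, 7.47, 5.63, 5.65 and 5.36, above the floor on replicates 1 and 2 alone. Among antioxidant enzymes Gpx4, Sod1, Gpx1 and Txn1 were bright, with means of 13.38 to 13.66. Srxn1 had 8.75, 9.40, 7.49, 5.09 and 6.94 and was the most variable of them. Sod2, the mitochondrial dismutase, had 10.87, 11.18, 12.14, 12.03 and 12.96, highest on replicate 5, and Prdx2 had 10.78, 11.16, 9.32, 9.29 and 8.37, lowest there.

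Genes of actin and motility had list means of 11.77, 11.98, 11.83, 11.97 and 11.70, higher on replicates 1 to 4 than those of any other list, and 16 of 17 reached the floor. Cfl1, Vim (14.02 ± 0.32), Tmsb10 (13.93 ± 0.23) and Actg1 (13.82 ± 0.086) were the brightest, and 11 of the 16 were lowest on replicate 1 (background 29.2%). The share lowest there was 61.6% among the 250 brightest genes, which held 8 of the 17 actin genes. Pfn1, an actin-binding protein of every cell, was at 5.82, so a gene that every cell uses can also lie below the floor. Of 16 matrix proteases and inhibitors 13 reached the floor. Timp2, an inhibitor of metalloproteases, had 13.73, 13.87, 13.81, 13.73 and 13.70, and Mmp2, a gelatinase made by stromal cells, 13.09, 13.17, 12.34, 12.91 and 12.43. Mmp12, the elastase of macrophages, had 8.92, 9.23, 9.49, 9.17 and 8.10, and Mmp3 had 9.94, 7.39, 10.05, 10.24 and 9.58, low on replicate 2 alone. Mmp9 was at 5.77. Of 19 cell cycle genes 8 reached the floor. Mki67, a marker of dividing cells, had 6.62, 7.83, 7.86, 7.48 and 7.69 and Cdc20, which drives exit from mitosis, 9.79, 11.74, 11.89, 10.55 and 11.18, while Top2a (5.68), Birc5 (4.50) and Plk1 (5.20) lay below the floor.

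**Figure D2:**
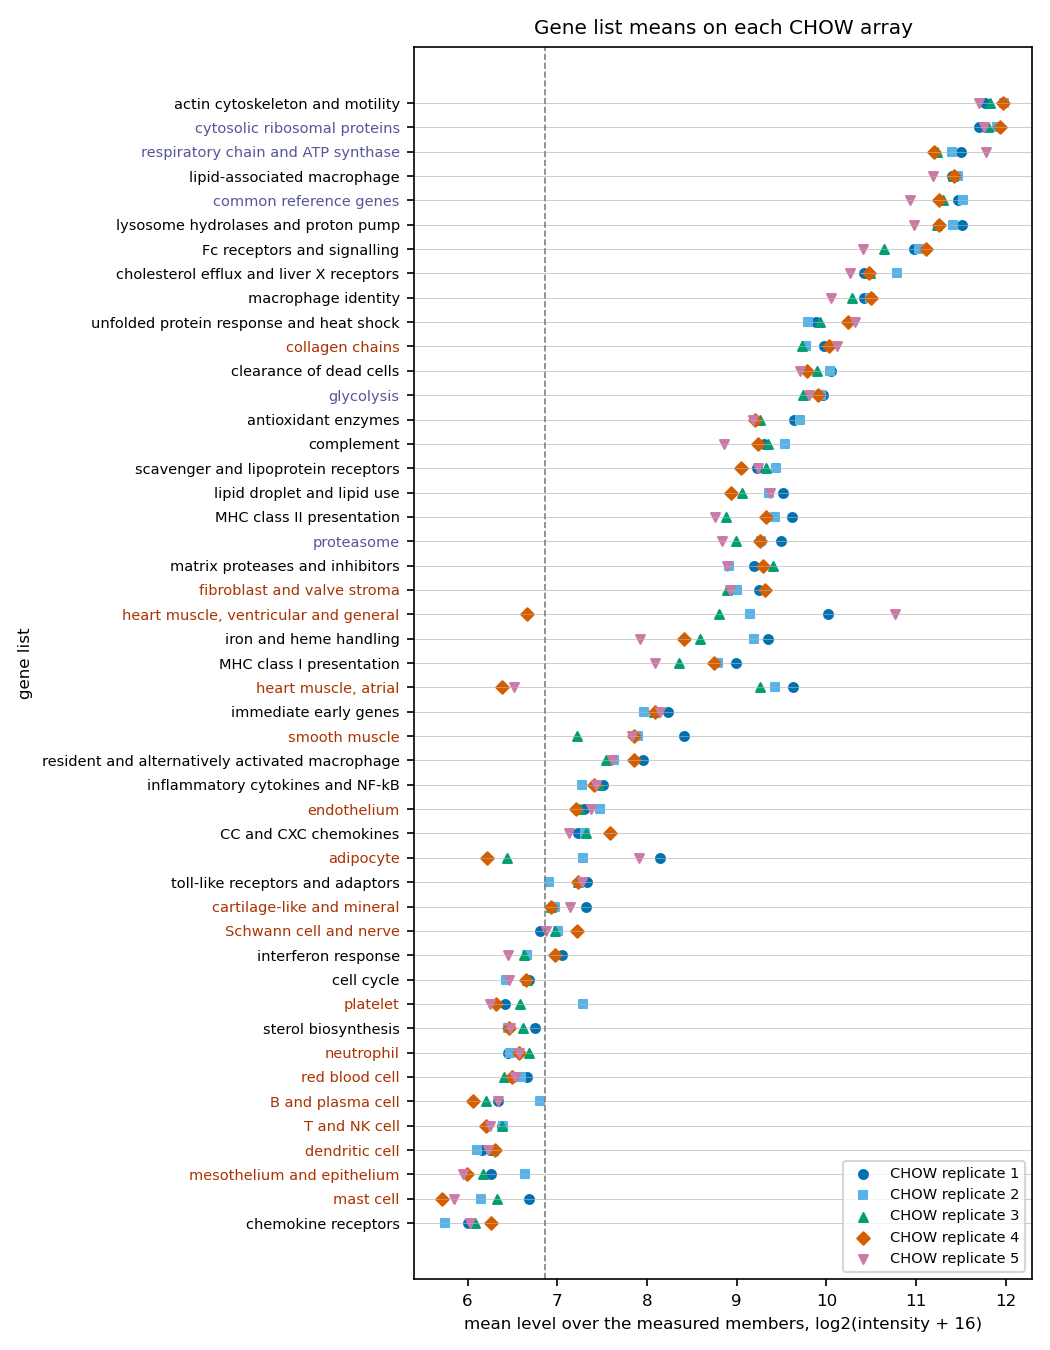
Mean level over the measured members of each of 47 gene lists, as log2(intensity + 16), on each CHOW array, with 1 symbol per replicate and the floor of 6.86 as a dashed line. Macrophage lists are in black, machinery shared by all cells in blue and neighbouring cell types in red. Most lists keep their 5 symbols together, and the heart muscle and adipocyte lists do not.

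Machinery that all cells share was bright, and part of it was steady. Of 41 cytosolic ribosomal protein genes with a probe set of their own 36 reached the floor. Their median SD was 0.17, against 0.51 over the 6192 genes and 0.27 over the 1032 brightest of these. The list's mean was 11.71, 11.90, 11.81, 11.94 and 11.75. Rps16 (4.56), Rps27 (5.37) and Rpl39 (5.21) lay below the floor. The respiratory chain and ATP synthase had 39 of 41 genes at or above the floor. Of the 39, 30 were highest on replicate 5, against a background of 25.3%, and the share was 49.6% among the 250 brightest genes. The respiratory list's mean was 11.50, 11.40, 11.24, 11.20 and 11.78. Uqcrb, a subunit of complex III, had 12.39, 13.73, 13.89, 13.94 and 14.43, Ndufa5, of complex I, 12.68, 12.82, 12.80, 12.53 and 13.98 and Atp5c1, of the ATP synthase, 12.77, 11.66, 11.85, 11.84 and 13.18. Heart muscle is rich in these genes, and the ventricular and general heart genes, though not the atrial ones, were also highest on replicate 5; their part in the respiratory values was not tested. Of 28 proteasome genes 21 reached the floor, led by Psma6 at 13.07 ± 0.17. Of 15 glycolysis genes 12 did, led by Aldoa (13.96 ± 0.22), Pgk1 (13.44 ± 0.19) and Ldha (13.43 ± 0.089).

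Heart muscle gave the largest differences between the CHOW arrays, in a pattern that separated atrial from ventricular genes. Of 28 measured ventricular and general heart genes 20 reached the floor, and of 8 atrial genes 4. The list means were 10.02, 9.15, 8.80, 6.66 and 10.76 for ventricular and general genes and 9.63, 9.42, 9.26, 6.38 and 6.52 for atrial genes. Nppa, the atrial natriuretic peptide, had 13.66, 13.53, 13.31, 8.42 and 9.75. Myl7, the atrial light chain of myosin, had 13.29, 13.25, 12.49, 8.11 and 7.73, and Sln, which restrains the calcium pump of the atrium, had 12.99, 12.60, 12.47, 6.66 and 5.55. All of these were high on replicates 1 to 3 and low on replicates 4 and 5. Myl2, the ventricular light chain, had 12.79, 10.65, 11.31, 6.51 and 13.95, and Myl3, another ventricular light chain, had 12.08, 10.29, 11.14, 8.27 and 13.48. Myh7, the slow myosin heavy chain, had 9.60, 7.64, 7.24, 4.98 and 11.69 and Ckmt2, the mitochondrial creatine kinase of muscle, 9.48, 7.08, 7.11, 4.87 and 12.04. These ventricular and general genes were lowest on replicate 4 and highest on replicate 5.

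Counts over the lists include the genes named above, so they are not separate support. They cover only genes whose mean reached the floor. Sln and Myl4 reached it through replicates 1 to 3 and lay below it on replicates 4 and 5. On replicate 5 all 20 ventricular and general genes lay above each of replicates 1 to 3 (background 30.4%), by a median of 1.45, and all 4 atrial genes lay below each of them (background 32.7%), by a median of 5.83. On replicate 4, 18 of the 20 and 4 of the 4 lay below each of replicates 1 to 3 (background 18.7%), by medians of 3.82 and 5.53. Replicates 4 and 5 were the lowest arrays in all 4 atrial genes (background 10.1%). In the 10 western diet arrays Myl7 ran from 12.16 to 14.00, Nppa from 11.02 to 14.02 and Sln from 11.52 to 13.91, so that replicates 4 and 5 of CHOW lay below each of those arrays in these genes. Myom2, the M-band protein of muscle, had 13.13, 12.80, 12.68, 4.45 and 14.05 and ran from 11.63 to 14.14 in the western diet arrays. In a bulk sample, fewer cells of a type and less RNA per cell cannot be told apart, and the part of muscle RNA in the macrophage values was not tested. The macrophage identity list had its lowest mean, 10.05, on replicate 5, where the ventricular and general list was highest, and 10.49 on replicate 4, where that list was lowest.

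The promoters of an atrial and of a ventricular light chain are shown as examples. The 2 genes went opposite ways on replicate 5, and their windows were chosen for the motif marked in them. Each window holds 1 CArG box, a motif bound by serum response factor and searched on both strands, which is in capitals. It is present in 4 of 32 windows (12.5%) of ventricular and general heart genes, from Actc1, Myl3 and overlapping windows of Ldb3. Among atrial genes 1 of 6 windows (16.7%) holds it, that of Myl7, against 1.63% of all windows. It is also in 5 of 24 windows (20.8%) of immediate early genes, most of them of Egr2, so it is not particular to heart genes. The windows of Myl4 and Myl2, an atrial and a ventricular light chain that also went opposite ways on replicate 5, hold none. The windows shown are those of Myl7 (chr11:5898733-5899032, minus strand) and Myl3 (chr9:110763428-110763727, plus strand) in RefSeq's GRCm38.p6 annotation.
Myl7: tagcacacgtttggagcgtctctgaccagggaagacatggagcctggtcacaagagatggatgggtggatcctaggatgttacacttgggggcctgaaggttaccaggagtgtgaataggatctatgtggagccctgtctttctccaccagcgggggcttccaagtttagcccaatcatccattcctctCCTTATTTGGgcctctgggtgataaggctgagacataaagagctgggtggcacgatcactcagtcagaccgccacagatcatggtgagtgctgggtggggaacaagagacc
Myl3: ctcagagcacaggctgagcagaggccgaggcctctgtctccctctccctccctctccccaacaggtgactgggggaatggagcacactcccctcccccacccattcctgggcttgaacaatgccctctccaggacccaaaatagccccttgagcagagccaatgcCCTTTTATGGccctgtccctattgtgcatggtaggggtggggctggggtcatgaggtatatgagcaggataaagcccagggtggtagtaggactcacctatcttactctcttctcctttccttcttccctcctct
As for the E-box, a match describes letters and not a bound site.

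**Figure D3:**
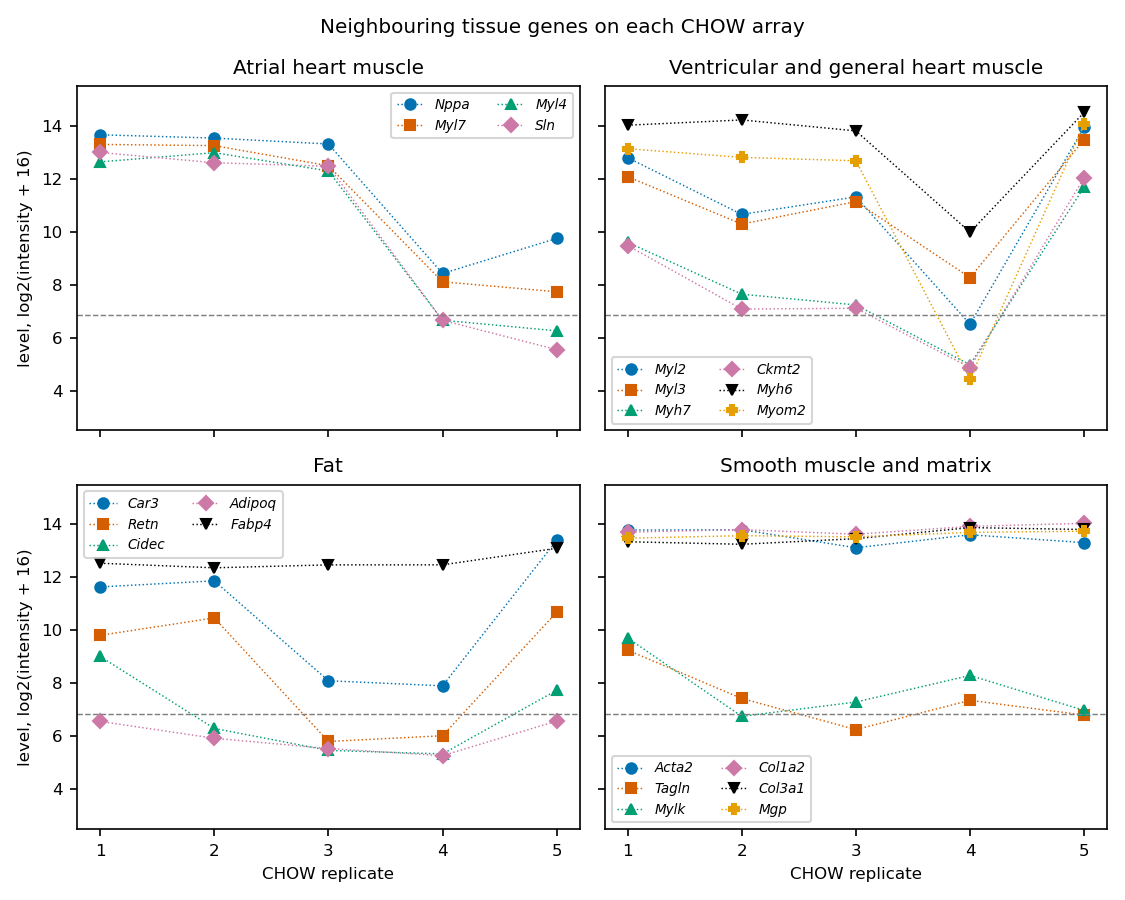
Level of named genes of 4 neighbouring tissues, as log2(intensity + 16), on CHOW replicates 1 to 5, with the floor as a dashed line and dotted lines to guide the eye. Atrial genes are low on replicates 4 and 5, ventricular and general heart genes on replicate 4, and the fat genes Car3 and Retn on replicates 3 and 4. Acta2, Col1a2, Col3a1 and Mgp stay level, while Tagln and Mylk are highest on replicate 1.

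Fat cell genes followed a different pattern. Car3, a carbonic anhydrase abundant in fat and slow muscle, had 11.64, 11.87, 8.10, 7.91 and 13.39, and Retn, the adipocyte hormone resistin, had 9.81, 10.47, 5.81, 6.02 and 10.69. Both were high on replicates 1, 2 and 5 and low on replicates 3 and 4. Adipoq, the hormone adiponectin, was below the floor on all arrays, with 6.57, 5.93, 5.54, 5.27 and 6.58, and Cidec, a droplet protein of white fat, had 9.02, 6.30, 5.47, 5.34 and 7.74. Ucp1, the uncoupling protein of brown fat, was above the floor on replicate 1 alone, with 10.05, 4.25, 4.87, 4.17 and 5.58. Of 11 measured genes 3 reached the floor by their mean, and the list's mean was 8.14, 7.28, 6.44, 6.21 and 7.91, which compares with 5.89 to 9.49 over the 10 western diet arrays. Fabp4, found in both fat cells and macrophages, had 12.54, 12.36, 12.47, 12.47 and 13.10 and was highest on replicate 5.

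Smooth muscle and stroma were more even than heart muscle and fat. Among genes at or above the floor the median SD was 0.53 for smooth muscle, 0.71 for stroma and 0.46 for collagen chains. Over all 6192 genes it was 0.51. Of 19 smooth muscle genes 11 reached the floor, 7 on all arrays. Tpm2, a tropomyosin, had 11.77, 12.67, 11.02, 12.10 and 11.71 and Cald1, caldesmon, 11.86, 11.56, 11.53, 11.60 and 11.51, whereas Tagln, a marker of contractile cells, had 9.25, 7.43, 6.26, 7.36 and 6.80 and Mylk, the myosin light chain kinase, 9.71, 6.75, 7.30, 8.30 and 6.98. Cnn1 (4.12) and Myh11 (6.39), the markers most restricted to contractile smooth muscle, had means below the floor. Of the 11 genes 8 were lowest on replicate 3 (background 14.2%). Collagen chains reached the floor in 15 of 19 cases. Col1a2 had 13.71, 13.80, 13.63, 13.93 and 14.04, Col3a1 13.35, 13.25, 13.46, 13.88 and 13.81 and Col1a1 12.17, 11.72, 11.58, 12.82 and 12.61, and none of the 15 was lowest on replicate 4 (background 11.5%). Among stromal genes 14 of 18 reached the floor. Fn1, fibronectin, had 13.41, 13.12, 13.14, 13.51 and 13.56, and Mgp, an inhibitor of calcification in the artery wall, had 13.48, 13.57, 13.53, 13.70 and 13.74. Lum, a proteoglycan, had 10.72, 10.00, 11.38, 11.87 and 11.70, Dcn, decorin, 9.99, 9.82, 7.99, 9.17 and 7.40 and Postn, periostin, 8.55, 7.78, 5.32, 8.65 and 6.47, so the stromal genes did not move as a block.

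The most restricted markers of endothelium and lymphocytes mostly lay below the floor. Of 22 endothelial genes 9 reached the floor (34.0% of all genes did), 6 of them highest on replicate 5 (background 25.3%). Vcam1, an adhesion molecule that macrophages and smooth muscle can also make, had 12.11, 12.45, 12.51, 12.73 and 12.90. Vwf, a clotting factor of endothelium and platelets, had 12.07, 13.02, 12.11, 12.02 and 11.95, highest on replicate 2. Pecam1 (5.07), Cdh5 (6.32), Kdr (5.47) and Tie1 (4.63), the most restricted endothelial markers, lay below the floor. Selp, the P-selectin of endothelium and platelets, had 7.00, 9.71, 8.94, 9.79 and 11.00, but its second probe set read 8.58, 7.74, 6.64, 7.26 and 6.86, with replicate 1 highest where the first had it lowest. Of 15 T and NK cell genes 3 reached the floor. Cd3e had 7.44, 7.63, 7.91, 8.24 and 7.87, while Cd3d (4.91) and Cd3g (5.44), subunits of the same receptor, did not reach it. Il7r, a cytokine receptor of T cells and some myeloid cells, was bright and even at 12.65 ± 0.22 (SD, n = 5). Of 10 B and plasma cell genes 2 reached the floor. Ighm, the heavy chain of IgM, had 8.43, 12.03, 7.28, 6.92 and 5.82, far highest on replicate 2, while Cd79a was at 5.58. Its second probe set, at 8.49, 7.07, 5.88, 7.21 and 4.92, did not have replicate 2 highest. The platelet list was highest on replicate 2, at 7.29 against 6.25 to 6.58 elsewhere, with Ppbp, a platelet chemokine, at 7.62, 9.84, 5.91, 5.08 and 5.47.

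Neutrophil genes reached the floor in 5 of 13 cases, with S100a8 at 11.52, 12.26, 12.46, 11.78 and 11.75 and its partner S100a9 below the floor at 5.85. Ngp had 8.04, 8.48, 8.72, 8.08 and 9.27, and Elane (5.54) and Mpo (5.43) were below the floor. Of 7 red cell genes Hbb-b2, a beta globin, was the only 1 that reached it, at 13.05, 13.44, 13.26, 12.59 and 12.98, while Hba-a1 was at 4.73. Dendritic cell genes reached it in 3 of 11 cases, among them Fscn1, an actin bundler of mature dendritic cells, with 8.71, 9.70, 10.80, 11.80 and 10.88. Nerve and Schwann cell genes reached it in 3 of 9 cases and mast cell genes in 1 of 9. Epcam, an epithelial adhesion molecule, had 10.48, 11.77, 11.99, 11.64 and 12.15, but Krt8 (5.92) and Cdh1 (6.21), further epithelial markers, lay below the floor. Acan (6.84), Col2a1 (4.77) and Sox9 (5.72), which mark cartilage, had means below the floor, and Comp, a matrix protein of cartilage and tendon, had 9.85, 8.64, 6.78, 8.58 and 8.60. The most restricted markers named for endothelium, T cells, B cells and cartilage thus mostly lay below the floor, as did Cnn1 and Myh11 of smooth muscle. Other members of these lists reached it, among them Acta2 and Vwf. By list, 11 of 19 smooth muscle, 9 of 22 endothelial and 5 of 15 cartilage-like genes did (34.0% of all genes). Defining genes of heart muscle differed widely between arrays: Myh6 was above the floor on every array, whereas Sln and Myl2 were below it on some.

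**Figure D4:**
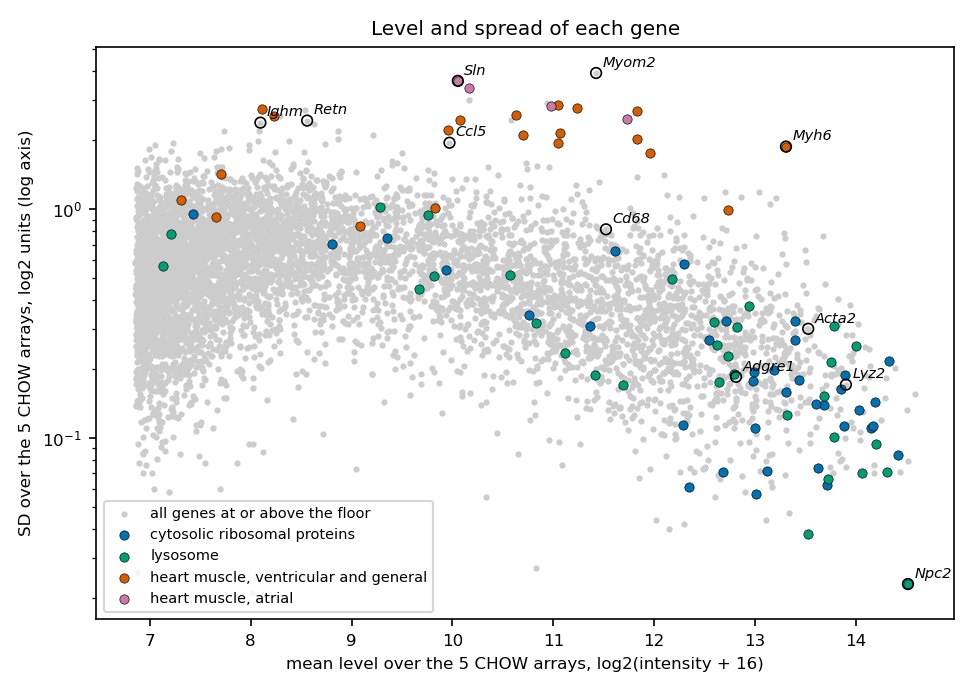
Mean level of each of the 6192 genes at or above the floor, as log2(intensity + 16), against its SD over the 5 CHOW arrays on a log axis. Ribosomal and lysosomal genes lie to the right and low, while heart muscle genes form the top of the cloud, and circled genes are named.

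The spread of a gene depended on its level. With the 6192 genes cut into 6 bins of 1032 by level, the median SD was 0.45 in the dimmest bin, rose to 0.69 in the fourth and fell to 0.27 in the brightest. The 250 steadiest genes, chosen by the lowest SD, had a median level of 12.20, and 158 of them came from the brightest bin. They ended at an SD of 0.14, with Rps2 just inside and Fpr-rs4 just outside. The steadiest were Myo1d, a myosin, at 8.00, 8.03, 8.02, 8.00 and 8.04, Npc2 (14.52 ± 0.023), Mmp10 (6.88 ± 0.026), which sat at the floor, and Cdc42se2 (10.83 ± 0.027), a partner of Cdc42. Ctsl, the trafficking genes Snx3 (12.29 ± 0.042) and Stx16 (12.02 ± 0.044), the membrane protein Plp2 (12.15 ± 0.040), the chaperonin subunit Tcp1 (13.11 ± 0.044) and the hypoxia factor Epas1 (12.90 ± 0.058) followed. Members of lists in the set were 14 of 36 ribosomal, 8 of 31 lysosomal and 5 of 16 actin genes, against a background of 4.04%. The median levels of these lists lay in the brightest bin, where 158 of 1032 genes were in the set. No gene of the chemokine, interferon, MHC, heart muscle or endothelial lists was in it. The same held for other lists, among them the scavenger receptor, complement and collagen lists, and at a share of 4.04% short lists can hold none.

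Membership of the steadiest set shifted with the processing. Under each of 10 settings (pseudocounts of 1 or 64, median centring, quantile normalization, the brightest probe set over all 15 arrays, and each array left out), 37 of the 250 stayed in the set. They included Npc2, Ctsb, Lgals3, Tgm2, Cfl1, Actg1, Eef1a1, Rpsa, Rpl6, Rps10, Selenow, Tcp1, Stx16, Psmc2 and Epas1. Of the 20 steadiest, 6 did. The lysosomal count was 7 to 9 when any 1 array was left out. The ribosomal count went from 9 without replicate 5 to 17 without replicate 1, and the actin count fell to 2 without replicate 3 and to 3 without replicate 1 or replicate 2. Common reference genes were not all alike: Eef1a1 had 13.63, 13.77, 13.73, 13.83 and 13.78, Actb 13.02, 13.22, 13.13, 13.29 and 13.36, Pgk1 13.14, 13.47, 13.40, 13.65 and 13.52 and Ywhaz 10.76, 12.18, 12.58, 12.10 and 12.67. Ywhaz was lowest on replicate 1 by more than any of the other 3 differed between arrays.

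The 250 most variable genes had SDs from 1.21 to 3.93, with Tec just inside and Zfp287 just outside. Of the 20 most variable, 16 are muscle genes: Myom2, Sln, Myl4, Srl, Myl2, Myl7, Myoz2, Ckmt2, Hrc, Mb, Csrp3, Myh7, Nppa, Pln, Synpo2l and the droplet protein of oxidative muscle, Plin5. Mb, which encodes myoglobin, had 13.29, 12.74, 12.06, 7.17 and 13.87, and Pln, which restrains the calcium pump, had 11.31, 10.22, 9.80, 6.24 and 12.83. Plin5 had 11.73, 9.74, 11.14, 5.22 and 13.01, high on replicate 5 and below the floor on replicate 4. The other 4 were Car3, Retn, Ighm and Ear3, a ribonuclease of eosinophils and some macrophages, with 10.93, 11.02, 6.70, 7.34 and 5.46. Ear3 was high on replicates 1 and 2 and belongs to a family of near-identical genes, so its signal is uncertain. Among list members, 15 of 20 ventricular and general heart genes, 4 of 4 atrial genes, 2 of 3 adipocyte genes and 3 of 9 iron genes were in the set, against a background of 4.04%. No member of the macrophage identity, lysosome, lipid-associated macrophage, Fc receptor, clearance or ribosomal lists was. The same held for other lists, among them the scavenger receptor, Toll-like receptor and collagen lists. At a share of 4.04%, short lists can hold none, so their absence says little. The median levels of the macrophage identity, lysosome, lipid-associated macrophage and ribosomal lists lay in the brightest level bin, where 7 of 1032 genes were in the set.

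Replicate 4 decided much of the heart muscle count. Without it, 6 of 21 ventricular and general heart genes at or above the floor were among the 250 most variable, while the atrial genes stayed at 4 of 4. The SD of Myom2 went from 3.93 to 0.62 without replicate 4, that of Srl from 2.90 to 0.44, that of Myoz2 from 2.78 to 0.58, that of Mb from 2.69 to 0.77 and that of Csrp3 from 2.59 to 0.68. For Sln, Myl4 and Myl7 it was 3.58, 3.20 and 2.67 without that array. The SD of Ighm went from 2.39 to 1.07 without replicate 2. Under the same 10 settings as above, 37 of the 250 stayed in the set, 14 of them from the 20 most variable. They included Sln, Myl4, Myl7, Myl2, Myl3, Myh7, Nppa, Pln, Ckmt2, Hrc, Plin5, Ttn, Car3, Retn, Ear3, Cxcl2 and the fat and liver genes Ces1d and Cyp2e1.

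A second probe set of the same gene, by construction the dimmer one, is a separate set of probes whose spread was not used to choose the steady and variable genes. For 1512 genes it also reached the floor, and 519 of them (34.3%) had their lowest array in common between both probe sets, while 33.3% had the highest array in common. The shares of genes lowest and highest on each array, multiplied over both probe sets, give 23% and 20.8%. Among variable genes with such a second probe set, 25 of 46 (54.3%) shared the lowest array and 45.7% the highest, where the array shares give 23.8% and 25.2%. Among steady genes 33 of 91 (36.3%) shared the lowest and 24.2% the highest, where they give 21.3% and 20.3%. The median SD of the second probe set was 0.86 for the variable, 0.43 for the steady and 0.54 for all 1512 genes. Myom2 gave 12.04, 11.99, 11.73, 4.51 and 13.34 on its second probe set, Myl3 12.57, 8.74, 10.15, 6.62 and 13.82 and Tnnt2, the troponin T of heart muscle, 11.21, 9.65, 7.96, 5.48 and 11.94, each with replicate 4 lowest and replicate 5 highest, as in the first. The second probe sets of Myh6, Sln, Myl4, Mb and Plin5 had means below the floor and gave no such check. For Atp2a2, the calcium pump of heart muscle and other cells, the first probe set had 13.03, 12.91, 12.81, 11.11 and 13.81 and the second 12.69, 12.79, 12.63, 12.52 and 12.63, which was even across the arrays. For Npc2 the second gave 13.39, 13.51, 13.36, 13.38 and 13.02, an SD of 0.18 against 0.023 for the first, so the near-constant values of the first are not shared by the second.

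Replicate 1 read differently through first and second probe sets. Of the 1512 genes 18.7% were highest on replicate 1 by the brightest probe set and 35.3% by the second, and 40.4% were lowest on it by the first against 24.8% by the second. The median gap between first and second probe sets was 1.23 on replicate 1, 1.38 to 1.39 on replicates 2 to 4 and 1.53 on replicate 5, and 1.30 to 1.55 on the western diet arrays. A count of genes low on replicate 1 or high on replicate 5 thus depends on the probe set that stands for a gene, and its source was not tested. Over the 6192 genes the first principal component held 48.2% of the variance between arrays and set replicate 1 (0.71) against replicate 5 (-0.66). The second component held 22.8% and set replicate 4 (0.81) against replicates 1 (-0.40) and 5 (-0.42). Of the 100 genes with the strongest weights opposite to replicate 4, 18 were ventricular and general heart genes and 4 atrial. These lists have 20 and 4 members among the 6192 genes. The third component held 19.0% and had its largest weight on replicate 2 (0.70). The same 4 atrial genes were also among the 100 strongest on the replicate 1 side of the first component and the replicate 2 side of the third.

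Genes that varied between the CHOW arrays tended to vary in the other groups as well, although those groups share no array with CHOW. The median SD of the 6192 genes was 0.51 in the CHOW arrays, 0.59 in the 2w-WD arrays and 0.29 in those of 14w-WD, with no test between the groups. Spearman's rho across genes between the SDs was 0.43 for CHOW and 2w-WD and 0.56 for CHOW and 14w-WD, where the points share platform, probe sets and level and are not independent. The 250 most variable CHOW genes had a median SD of 0.92 in 2w-WD and of 0.62 in the longer diet, and for the 250 steadiest it was 0.32 and 0.12. Of the 250 most variable in CHOW, 62 (24.8%) were among the 250 most variable in 2w-WD, 85 (34.0%) in 14w-WD and 35 in all 3 groups. A set of 250 holds 4.04% of the 6192 genes, and level was not matched in these overlaps. Those 35 included Myl2, Myl3, Myh7, Ckmt2, Hrc, Plin5, Car3, Retn, Cxcl1 and Cxcl2. In 2w-WD and 14w-WD, in that order, Myl2 had SDs of 3.97 and 2.98, and Car3 of 4.17 and 1.56. The atrial genes Sln and Myl7, whose SDs in CHOW were 3.63 and 2.81, had 0.90 and 0.57, and 0.70 and 0.55. Of the 250 steadiest, 34 (13.6%) were steady in 2w-WD, 63 (25.2%) in 14w-WD and 13 in all 3, namely Cfl1, Cstb, Fth1, Grn, Ldha, Nme2, Osbpl9, Rpl13a, Rps18, Rps29, Scarb2, Tcp1 and Tgm2. Of the 250 steadiest in CHOW, 158 came from the brightest level bin.

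**Figure D5:**
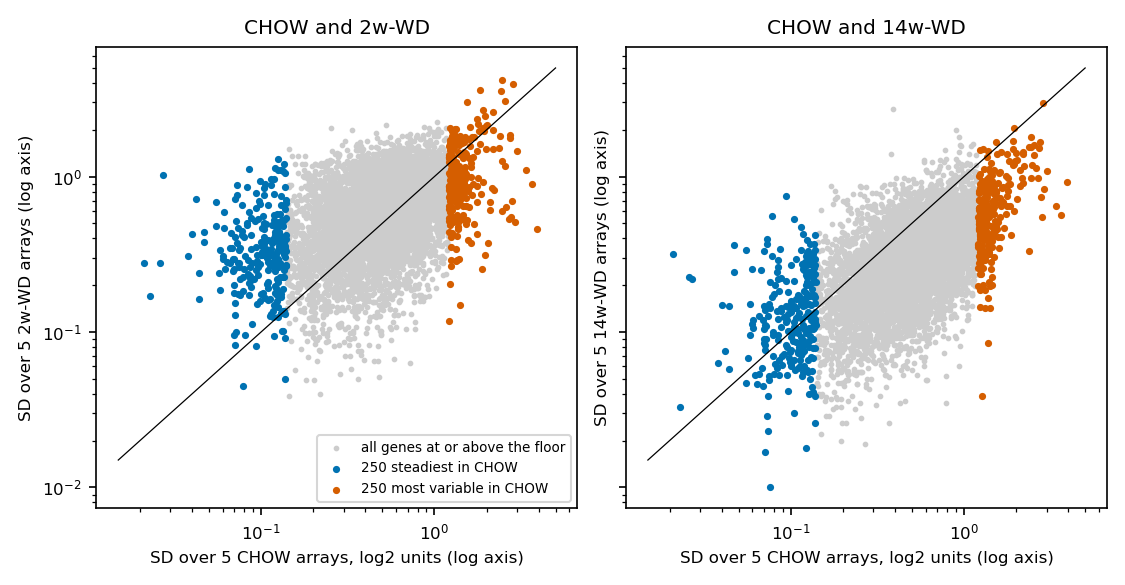
SD of each of the 6192 genes over the 5 CHOW arrays (horizontal) against its SD over the 5 arrays of 2w-WD (left) and of 14w-WD (right), all in log2 units on log axes, with a line where both are equal. The 250 most variable CHOW genes, in orange, have median SDs of 0.92 and 0.62 in the other groups, and the 250 steadiest, in blue, of 0.32 and 0.12.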

How the data were processed

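The deposited values are intensities on a linear scale, 1 per probe set and array, for 45037 probe sets. The sources used here do not say how the authors summarised the probes or normalised the arrays. Per the labels' protocols, captured RNA was extracted, amplified and biotin-labelled, and 15 µg of amplified RNA was used for an array. No array was rescaled here, and levels are log2(intensity + 16). A supplied platform annotation named 34945 probe sets by 1 gene, 932 by several (not used) and left 9160 unnamed. Spp1 and Gapdh had no probe set of their own in it and were not analysed here.

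The 250 brightest, steadiest and most variable genes were described by their mean and SD over the 5 CHOW arrays, the latter sets among genes with a mean of at least 6.86, and by 47 gene lists. The western diet arrays were used only for level and spread. No test between groups was made. Genes named by rule were the 25 brightest, the 20 steadiest, the 20 most variable, in each list the 3 brightest and the 2 most variable, and the defining members of a cell type or pathway that lay below the floor. Other list members that are named were chosen after their values were seen. The samples, the lists and the rule were chosen with earlier results of these data known. Motifs were counted in RefSeq promoter windows. The code was tested on simulated data. Python 3.11.15, NumPy 2.4.6, pandas 2.3.3 and SciPy 1.17.1 were used. The closing section gives the alternatives. Their number, 5 arrays, limits the precision.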

Additional observations from a re-analysis of the deposited data

Results flagged for a closer look

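In 27 of 249 named genes (10.8%) and in 2 of 47 list means (4.26%), 1 of the 5 CHOW arrays lay so far from the others that the gap was above 0.71 of the whole range. Over all 6192 genes at or above the floor this held for 429 (6.93%), and chance gives about 1 in 20. The named genes were chosen in part by a high SD over these same arrays. Their share is therefore not comparable with that of all genes or with chance. Replicate 1 was the low array in 10 of the 27 genes and replicate 4 in 7. The 7 genes low on replicate 4 were muscle genes: Myom2, with a gap of 0.857 of the range, Srl (0.848), Myh6 (0.846), Myoz2 (0.812), Csrp3 (0.763), Mb (0.73) and Cox6a2 (0.728), a subunit of the respiratory chain of heart and skeletal muscle.

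The 10 genes low on replicate 1 were the ribosomal gene Rps28 (0.895), the chaperones Canx (0.853), Calr (0.725) and Tcp1 (0.725), the proteasome subunit Psma3 (0.821), the cholesterol exporter Abca1 (0.788), the immediate early gene Egr2 (0.767), the lysosomal anchor Lamtor1 (0.761), the fatty acid carrier Fabp5 (0.73) and Selenop (0.717). Replicate 1 was the high array in Sdhc (0.738), of respiratory complex II, and in Myd88 (0.735). Replicate 5 was the low array in Rsad2 (0.904), Lpcat3 (0.753), which remodels phospholipids, and C1qa (0.746), and the high array in Fabp4 (0.767). Replicate 2 was the high array in Cfl1 (0.907), Vwf (0.852) and the platelet gene Gp1bb (0.712), and the low array in Mmp3 (0.766). The mean of the lipid-associated macrophage list was apart on replicate 5 (0.739), and that of the Toll-like receptor list on replicate 2 (0.776), where it was 6.90 against 7.23 to 7.33 on the other arrays.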

How the results depend on the processing

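Median centring, pseudocounts of 1 or 64 and the choice of the brightest probe set over all 15 arrays kept each of the 3 sets of 250 genes within 1.5 times of full overlap. Of the 250 steadiest genes, 82 stayed under quantile normalization, 113 with the mean of all probe sets of a gene, 121 with the floor at the median of all probe sets, 140 with the SD set relative to genes of like level and 85 with the median absolute deviation. Of the 250 most variable genes, 102 stayed with the mean of all probe sets, 36 with the floor at an intensity of 1000, 134 with the SD relative to like level and 103 with the median absolute deviation. Fewer genes remain above the higher floor. Of the 250 brightest, 92 stayed with the mean of all probe sets. Leaving out 1 array kept 116 to 187 of the steadiest, 146 to 211 of the most variable and 237 to 249 of the brightest, with the lowest steady value without replicate 1 and the lowest variable value without replicate 5. The agreement of a second probe set, the share of genes with their lowest array in common, was 34.3%; it was 29.2% with a lower floor for the second probe set and 36.5% to 40.6% with 1 array left out, where 4 arrays remain to choose from. In 28 of 47 lists the median member reached the floor, and in 24 with the mean of all probe sets. The mean level moved by more than its SD over arrays in 25, 37 and 42 of 47 lists and in 15, 25 and 116 of 249 named genes under pseudocounts of 1 and 64 and under the mean of all probe sets, and in none under the other settings. Apart from what the settings' construction gives, the cause of these shifts was not tested. No paired analysis was possible because no comparison between groups was made. Signal near the floor limits what can be said of dim genes.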

Other observations

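Outside the gene lists, some genes kept their place among the 250 steadiest or the 250 most variable under each of the 10 settings named in the report; they were picked out after their values were seen. Cd5l, a protein that macrophages secrete and that protects them from cell death, was bright and steady, at 13.73, 13.93, 13.98, 13.88 and 13.95 on replicates 1 to 5. Pon2, an enzyme that limits lipid oxidation, had 13.05, 13.16, 13.20, 13.18 and 13.21, and Anxa5, which binds the phosphatidylserine of dying cells, had 12.95, 13.20, 13.14, 13.13 and 13.17.

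Some variable genes followed the heart muscle genes in their values and others did not. Cyp2e1, a cytochrome of liver and fat, had 10.31, 9.09, 6.75, 6.89 and 9.06, low on replicates 3 and 4 like Car3 and Retn. Ces1d, a carboxylesterase of fat and liver, had 9.16, 7.84, 7.40, 5.35 and 10.63, lowest on replicate 4 and highest on replicate 5. Cdkn1c, an inhibitor of cell division, had 9.15, 8.88, 7.95, 6.08 and 6.27, low on replicates 4 and 5 like the atrial genes. Scx, a transcription factor of tendon and heart valve cells, had 10.14, 8.37, 6.86, 9.63 and 6.99, high on replicates 1 and 4, an order that the heart and fat genes did not share. Rgcc, a regulator of the cell cycle, had 7.63, 8.39, 10.96, 9.02 and 11.24, high on replicates 3 and 5.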
